A study of Mus musculus with 6 samples.

Results

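A set of 10 regulators of salivary gland cell identity was followed in mouse submandibular glands after irradiation: the transcription factors Ascl3, Bhlha15, Spdef, Sox2, Sox9, Sox10, Trp63, Elf5 and Ehf, and the receptor tyrosine kinase gene Kit. They were chosen by symbol from the deposited expression table and make up 10 of its 24394 usable genes. RNA sequencing was performed on total RNA of the submandibular salivary gland, the large mixed gland under the jaw. The glands came from wild-type mice of the C57BL/6 strain and were either unirradiated (control, T0) or taken 6 h or 24 h after irradiation at 5 Gy. Each of the 3 groups had 2 libraries. The labels give no age or sex, mention no pooling of glands and do not state whether each library is from its own animal. The p-values therefore measure only the spread between these libraries.

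The gland is built from acinar cells, which secrete the saliva proteins, and from ducts that modify the fluid, with contractile myoepithelial cells and basal cells at the outside. BHLHA15 (MIST1) and the ETS family factor SPDEF act in secretory cells, ASCL3 marks duct cells that include the ion-transporting ionocytes, and TRP63 (p63) maintains basal epithelial cells. SOX2, SOX9 and SOX10 and the receptor KIT mark or maintain progenitor cells of developing and adult salivary glands, while ELF5 and EHF are ETS factors of glandular epithelia. All are annotated as protein-coding genes in GENCODE release M21 (GRCm38, also called mm10; positions counted from 1). The secretory and duct factors lie at chr7:109727465-109731726 (Ascl3, minus strand), chr5:144190286-144194441 (Bhlha15, plus strand) and chr17:27714352-27728955 (Spdef, minus strand). The SOX genes lie at chr3:34650405-34652461 (Sox2, plus strand), chr11:112782224-112787760 (Sox9, plus strand) and chr15:79154908-79165240 (Sox10, minus strand). Trp63 lies at chr16:25683763-25892102 and Kit at chr5:75574916-75656722, both on the plus strand, and Elf5 at chr2:103411688-103450989 (plus strand) stands beside Ehf at chr2:103263433-103303278 (minus strand).

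Levels are given as FPKM, fragments per kilobase of transcript, scaled to the mapped fragments of the library, so that levels of different genes can be compared per length. Cdkn1a, a p53 target and the gene of p21, served as a check of the radiation response. It had 2.36 and 2.13 FPKM in the control libraries, 39.7 and 44.7 FPKM in the 6 h libraries and 35.6 and 36.2 FPKM in the 24 h libraries, so every irradiated library was above both control libraries. Values of the control and 6 h libraries were multiples of single reads, from which library sizes between 11826335 and 12577222 reads followed. In the 24 h libraries 99.99% of values carried at most 6 digits, against 0% in the other libraries. The 24 h values were not searched for such multiples, and the depth of those libraries is unknown. Any difference between 24 h and another group therefore cannot be told apart from a difference in how the 24 h values were computed, and this holds for every 24 h result that follows. The FPKM of all genes summed to 677320 and 1203218 in the 24 h libraries, and to between 866233 and 900281 in the others. Levels are compared as deposited, so gaps between the 24 h libraries depend on that scaling. Libraries also differed in genes of neighbouring glands and of skin, which are given beside the regulators they moved with. In whole tissue, fewer cells of a type and less RNA per cell cannot be told apart.

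The 250 bases before the annotated start were shown for the pair of basic helix-loop-helix factors, Ascl3 and Bhlha15. Factors of this family bind the E-box motif. The sequences are from RefSeq on build GRCm38.p6, read in the direction of the gene, and capitals mark each E-box (CANNTG, which reads as a CANNTG on both strands). Ascl3 lies on the minus strand, with its window at chr7:109731733-109731982, and Bhlha15 on the plus strand, with its window at chr5:144190036-144190285.
Ascl3: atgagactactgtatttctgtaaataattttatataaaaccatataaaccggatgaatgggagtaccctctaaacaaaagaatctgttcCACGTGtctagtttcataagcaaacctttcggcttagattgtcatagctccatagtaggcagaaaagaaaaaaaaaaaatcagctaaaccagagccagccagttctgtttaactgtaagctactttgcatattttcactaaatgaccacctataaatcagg
Bhlha15: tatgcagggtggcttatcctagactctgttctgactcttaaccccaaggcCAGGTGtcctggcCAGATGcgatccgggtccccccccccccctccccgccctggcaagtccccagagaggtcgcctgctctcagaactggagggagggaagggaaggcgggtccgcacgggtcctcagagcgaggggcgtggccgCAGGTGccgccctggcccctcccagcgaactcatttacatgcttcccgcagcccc
The Ascl3 window held 1 E-box, a palindromic CACGTG that begins 161 bases upstream of the start. The Bhlha15 window held 3, beginning 200, 187 and 55 bases upstream. An E-box was present in 66.2% of the 32851 promoter windows of the same length, so its presence does not set either gene apart. The Ascl3 window also held 4 matches to TATAAA on either strand, a pair of them overlapping, and 1 began 11 bases before the start. The Bhlha15 window held 0. TATAAA was present in 12.4% of all windows. A match describes the letters of the window and is not evidence of a bound site.

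All 10 regulators reached the limit for testing, an average of 1 FPKM across the libraries. In control glands Ehf averaged 119 ± 2.49 FPKM and Bhlha15 97.9 ± 7.11 FPKM (SD, n = 2 for each mean ± SD in this report), and the libraries of these most abundant regulators did not overlap. Elf5 followed at 47.7 ± 1.09 FPKM. Sox10 at 19.9 ± 4.04, Spdef at 19.8 ± 12.9 and Ascl3 at 17.8 ± 3.86 FPKM could not be ranked, since their control libraries overlapped. Below them stood Sox9 at 9.12 ± 0.867 FPKM, Kit at 4.27 ± 0.312 FPKM and Trp63 at 2.11 ± 0.246 FPKM. Sox2 was the least even, with 0 and 3.68 FPKM in the control libraries, a range that included both Trp63 values.

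**Figure D1:**
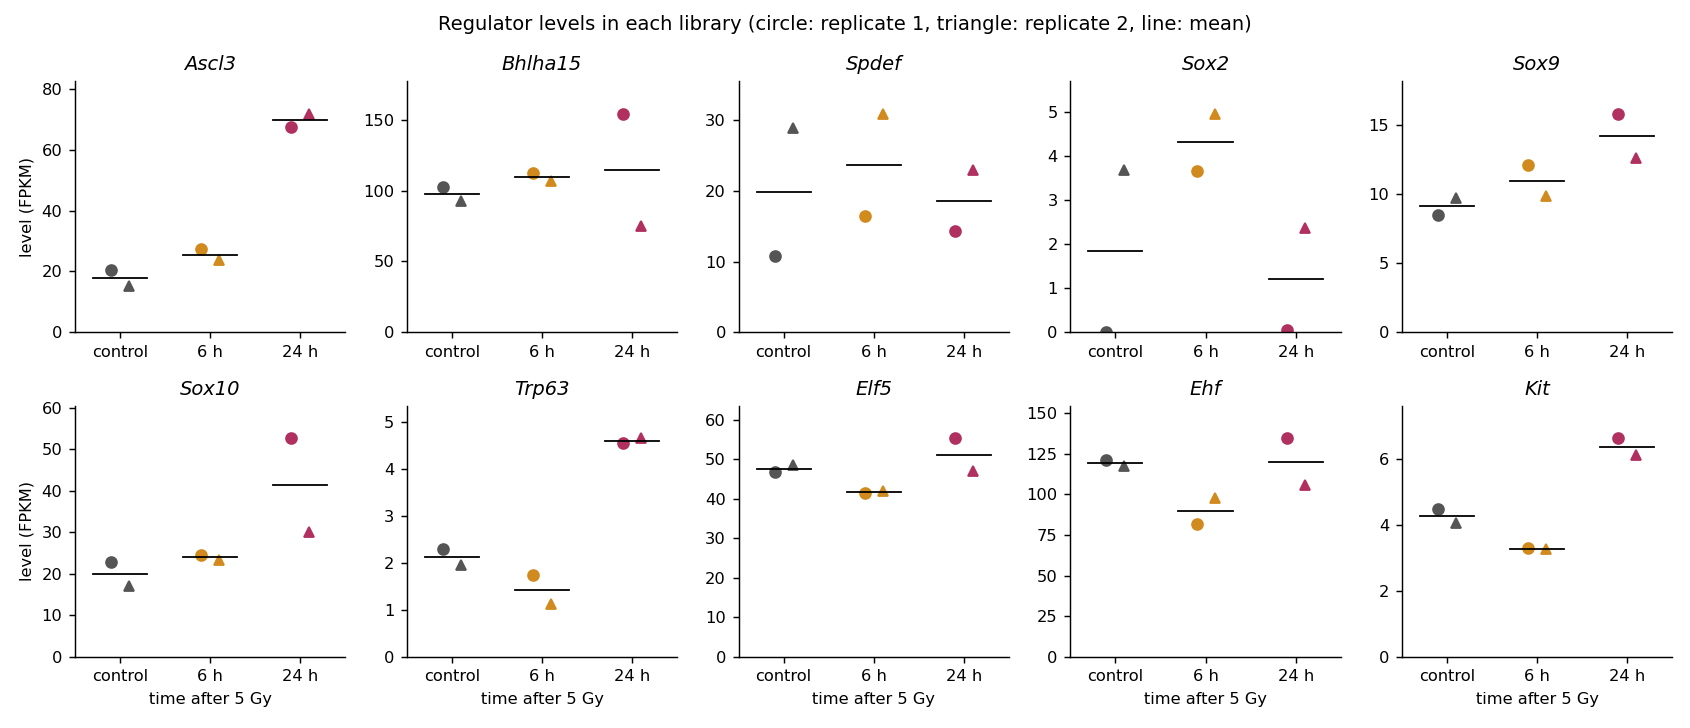
Level of each regulator in FPKM (y axis, from 0, a separate scale per gene) in control glands and at 6 h and 24 h after 5 Gy (x axis); circles are replicate 1, triangles replicate 2 and lines the mean of 2 libraries. Ascl3, Trp63 and Kit were highest in both 24 h libraries, whereas Sox2 was at or near 0 in replicate 1 of control and of 24 h.

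At 6 h none of the 10 regulators passed the test across all genes (limma on log2(FPKM + 1), two-sided, Benjamini-Hochberg adjusted p under 0.05). That test called 81 of 11674 genes higher (0.694%) and 37 lower (0.317%), and 1724 genes had an unadjusted p under 0.05, among them Ascl3, Ehf and Kit of the regulators. Both 6 h libraries were above both control libraries for 4 regulators, Ascl3, Bhlha15, Sox9 and Sox10, against 19.4% of all tested genes. Both were below both control libraries for another 4, Trp63, Elf5, Ehf and Kit, against 24.9% of all tested genes. At 24 h, 5 of the 10 were called higher than control, Ascl3, Trp63, Kit, Sox9 and Sox10, and 0 lower. Among all tested genes 21.0% were called higher and 4.30% lower in that comparison. Of the 24 h calls only that of Ascl3 held under all 18 other settings and scalings tried. Against 6 h, Ascl3, Trp63 and Kit were called higher and 0 lower, where 23.4% of all tested genes were called higher and 4.31% lower. The median log2 fold change over the 10 regulators was 0.20 at 6 h and 0.31 at 24 h against control, and 0.38 for 24 h against 6 h, beside -0.02, 0.20 and 0.22 over all tested genes.

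**Figure D2:**
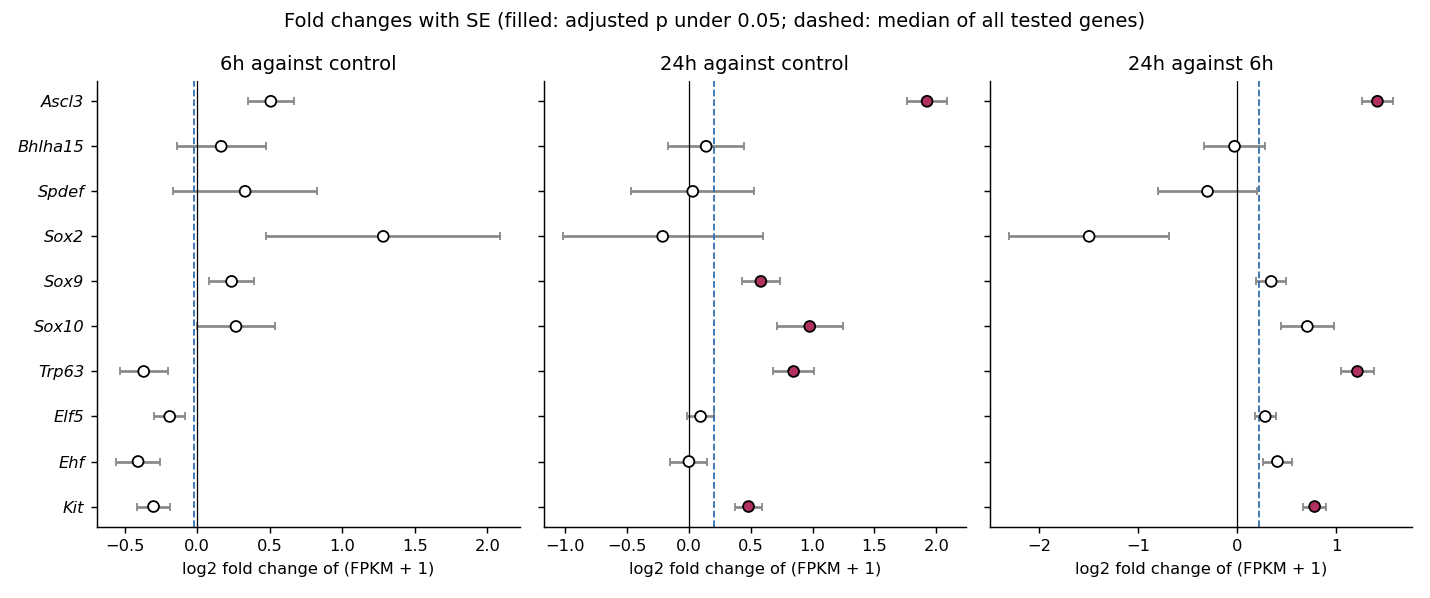
Log2 fold change of (FPKM + 1) with its SE (x axis) for each regulator (y axis) in the 3 comparisons; filled points had an adjusted p under 0.05 and the dashed line is the median of all tested genes. No point is filled at 6 h, 5 are filled for 24 h against control and 3 for 24 h against 6 h; the comparisons share libraries.

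Ascl3, the achaete-scute family factor of duct progenitors and ionocytes, showed the highest fold change of the 10 at 24 h. Its levels were 20.5 and 15.1 FPKM in the control libraries (179 and 126 reads), 27.4 and 23.6 FPKM in the 6 h libraries (235 and 210 reads) and 67.5 and 72.0 FPKM in the 24 h libraries. The groups did not overlap, and both 24 h libraries stood well above every other library. The log2 fold change was 1.93 ± 0.16 (SE) for 24 h against control (adjusted p = 0.000629) and 1.42 ± 0.16 for 24 h against 6 h (adjusted p = 0.00189). At 6 h against control it was 0.51 ± 0.16 and did not pass (adjusted p = 0.233). Leaving out each library in turn gave 1.71 to 2.14 for 24 h against control, with adjusted p between 0.00165 and 0.0182.

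Ascl3 is a short gene, counted over 706 bases, and in the 24 h libraries short genes were higher in general. Genes counted over at most 1000 bases had a median log2 fold change of 0.44 for 24 h against control, whereas the medians of longer classes lay between 0.16 and 0.24. Among the 473 tested genes within 20% of the length of Ascl3 the median was 0.48, and 95.1% of them had a lower value than Ascl3. Their median at 6 h was -0.03. The part of length in the 24 h value was not tested further.

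With all libraries used, other ionocyte genes were not called higher. Of 7 tested ionocyte genes, 0 were higher and 1 was lower at 24 h, with a median log2 fold change of 0.28 beside 0.20 over all genes. The called gene was Atp6v1c2, a subunit of the proton pump, at 7.49 and 5.65 FPKM at 24 h against 17.7 and 14.5 FPKM in control (-1.18 ± 0.16, adjusted p = 0.00396). At 24 h against 6 h it was also the only one called (-0.71 ± 0.16, adjusted p = 0.0211), and at 6 h 0 of the 7 were called. The count against control was 0 higher and 1 lower under each of 4 other scalings of the libraries as well, while the call against 6 h was lost with libraries scaled to an equal sum and without 6h replicate 1, 6h replicate 2 or 24h replicate 2 (-0.76, -0.66 and -0.53, adjusted p = 0.0884, 0.101 and 0.113). Foxi1, the forkhead factor that specifies ionocytes, had 12.0 and 9.80 FPKM at 24 h and 8.95 and 5.14 FPKM in control, and missed the threshold (0.60 ± 0.24, adjusted p = 0.114). Cftr, the chloride channel gene, had 6.48 and 5.70 FPKM at 24 h and 16.1 and 6.68 FPKM in control (-0.70 ± 0.34, adjusted p = 0.188), the control difference resting on replicate 1. Without control replicate 1 the log2 fold change at 24 h against control was 0.95 for Foxi1 and -0.12 for Cftr. Without control replicate 2 it was 0.25 for Foxi1 and -1.28 for Cftr, so single control libraries decided the size of both. Foxi1 and Cftr were singled out after their values were seen.

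**Figure D3:**
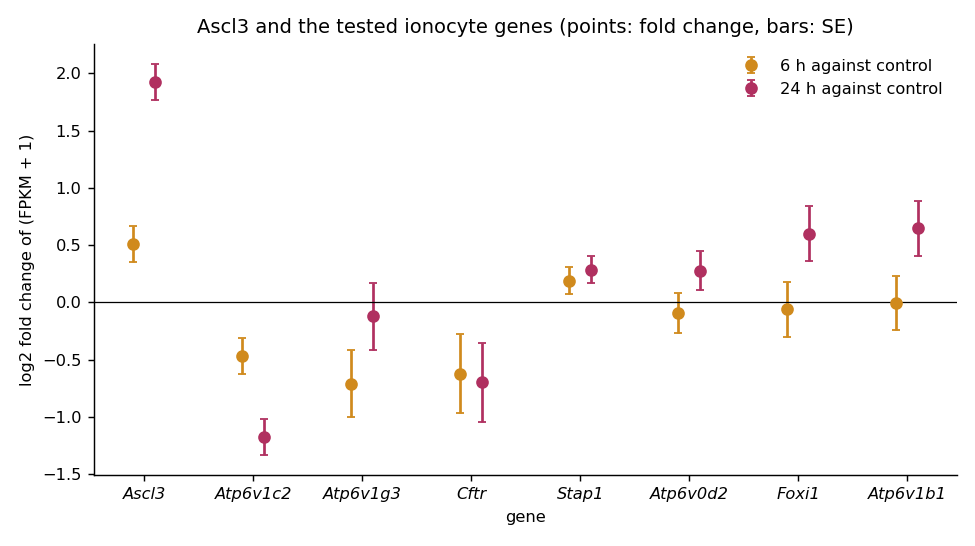
Log2 fold change of (FPKM + 1) with SE (y axis) for Ascl3 and the 7 tested ionocyte genes (x axis) at 6 h and at 24 h against control. Ascl3 reached 1.93 at 24 h, while the ionocyte genes lay between -1.18 and 0.65.

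Bhlha15, which builds the secretory apparatus of acinar cells, was among the most abundant regulators and passed no test. Its levels were 103 and 92.9 FPKM in the control libraries, 113 and 107 FPKM in the 6 h libraries and 154 and 75.3 FPKM in the 24 h libraries. The 24 h libraries thus held both the highest and the lowest value, a 2.05-fold gap, where the libraries of the other groups lay within 1.11-fold. The log2 fold change was 0.17 ± 0.31 at 6 h and 0.14 ± 0.31 at 24 h against control (adjusted p = 0.862 and 0.767). Without 24h replicate 2 the 24 h value was 0.65 and passed (adjusted p = 0.0442), and without 24h replicate 1 it was -0.37 (adjusted p = 0.132), so single libraries decided its sign.

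Of 6 genes listed as MIST1 targets, 4 were tested, and Nucb2, a calcium-binding protein gene, was the only one called at 24 h against control, where it was lower (-0.55 ± 0.15, adjusted p = 0.0401). That call was lost without any 1 of 5 libraries, all but control replicate 2 (adjusted p between 0.0569 and 0.168). Nucb2 and Rab26 were called for 24 h against 6 h, in opposite directions. Of 4 other scalings, 3 called Nucb2 and 1 called Rab26, with Rab26 values of 0.36 to 0.71. Rab26, a small GTPase of secretory granules, had 7.12 and 5.93 FPKM at 24 h against 3.22 and 3.94 FPKM at 6 h (0.72 ± 0.14, adjusted p = 0.0120), with 6.05 and 6.13 FPKM in control; the call was lost without 6h replicate 1 or 24h replicate 1 (0.60 in both fits, adjusted p = 0.0779 and 0.0901). Among 12 tested acinar genes, Tcn2, which encodes a vitamin B12 carrier, was called higher at 24 h (0.84 ± 0.11, adjusted p = 0.00397) and no other was called; under quantile scaling its value was 0.18 (adjusted p = 0.328). At 6 h 0 of the MIST1 targets and 0 of the acinar genes were called. With libraries scaled to an equal sum, 5 of the 12 acinar genes were higher at 6 h. At 24 h against control 3 were higher and 1 lower under that scaling, and 0 of the MIST1 targets were called in any comparison. As deposited, Smgc, Bpifa2, Dcpp1, Dcpp2 and Dcpp3 of the acinar list had at most 5.31 FPKM in control replicate 1 and at least 251 FPKM in control replicate 2. Their 6 h log2 fold changes were 4.17 to 6.16, beside -0.26 to 0.37 for the other acinar genes. They were singled out after their values were seen. Over the 6 libraries Smgc correlated with Sox2 at 0.987, Dcpp1 at 0.926 and Bpifa2, also a parotid gene, at 0.649. The part of neighbouring glands in the levels of these genes was not tested. For 24 h against 6 h, where 1 acinar gene was higher and 0 lower as deposited, 0 were higher and 1 to 4 lower under the 4 other scalings.

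Sox2, a factor of acinar progenitors in the mouse sublingual gland, and Spdef, an ETS factor of mucous and goblet cells, differed more between libraries of one group than between groups. Sox2 had 0 and 3.68 FPKM in the control libraries, 3.66 and 4.95 FPKM in the 6 h libraries and 0.0416 and 2.36 FPKM in the 24 h libraries. In reads this was 0 and 107 in control and 109 and 153 at 6 h. A count of 0 in control replicate 1 allows a level of up to 0.0990 FPKM (3 reads), so the gap to control replicate 2 was beyond counting error. Spdef had 10.8 and 28.9 FPKM in the control libraries, 16.4 and 30.9 FPKM in the 6 h libraries and 14.4 and 22.9 FPKM in the 24 h libraries, and replicate 1 was the lower library in every group. The 95% Poisson intervals of the control libraries, 9.44 to 12.2 FPKM and 26.7 to 31.3 FPKM, did not overlap; intervals and limits of this kind cover counting error only. The groups overlapped for Spdef in every comparison and for Sox2 in both comparisons with control, while both 24 h libraries were below both 6 h libraries in Sox2.

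Neither gene passed a test as deposited. For Sox2 the log2 fold change was 1.28 ± 0.81 at 6 h against control (adjusted p = 0.529) and -1.49 ± 0.81 for 24 h against 6 h (adjusted p = 0.213). The value for 24 h against 6 h was called in 2 of 18 alternatives, at -1.72 with libraries scaled to an equal sum (adjusted p = 6.38e-05) and at -2.34 with control replicate 1 and 24h replicate 2 left out (adjusted p = 0.0363). Scaling to an equal sum also called Sox2 higher at 6 h against control (1.36, adjusted p = 0.0256). Under this scaling the SEs of Kitl, Foxi1, Cftr and Acta2 at 24 h against control were 0.404 to 0.473. As deposited they were 0.136 to 0.345. Calls made with equal sums, here and elsewhere, may thus reflect a spread shared across genes more than that of the gene itself. For Spdef the log2 fold change as deposited was 0.33 ± 0.50 at 6 h and 0.03 ± 0.50 at 24 h against control (adjusted p = 0.822 and 0.970). Without control replicate 1 and 24h replicate 1, the Sox2 value at 6 h against control became 0.17 and the Spdef value -0.34. The Sox2 gene lies within the longer noncoding gene Sox2ot on the same strand, so reads of the 2 genes may not be separable.

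Some markers of the neighbouring sublingual gland moved with Sox2. The summed level of the 6 sublingual and mucous genes was 16.8 FPKM in control replicate 1 and 26.9 FPKM in 24h replicate 1, the libraries low in Sox2, against 160 to 212 FPKM in the other 4. Muc19, the mucin that defines that gland, was near 0 in control replicate 1 (0.0178 FPKM) and at 178 FPKM in control replicate 2, and it made up most of the sum in the 4 libraries high in Sox2. Agr2, a protein-folding gene of mucous cells and 1 of the 3 tested in the list, did not follow Sox2, with 15.1 and 19.0 FPKM in the control libraries, 10.96 and 18.5 FPKM in the 6 h libraries and 23.1 and 28.3 FPKM in the 24 h libraries. Over the 6 libraries the correlation of log2(FPKM + 1) between Sox2 and Muc19 was 0.965, and between Sox2 and Galnt12, a mucin glycosylation enzyme gene, 0.977. For Spdef the values were 0.855 with Muc19 and 0.892 with Dcpp1, a secreted protein gene of the acinar list. Muc19 had 139 and 160 FPKM in the 6 h libraries, in which Spdef was at 16.4 and 30.9 FPKM. Sox2 and Spdef correlated with each other at 0.846 over the 6 libraries and at 0.859 over the 4 control and 6 h libraries. These correlations describe 6 points that share library and depth, and the genes were picked after their values were seen.

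Of 6 markers of the parotid, the other neighbouring gland, 4 were lower in replicate 1 of every group, as Spdef was. Amy1, the salivary amylase gene, had 18.4 and 2945 FPKM in the control libraries, 24.4 and 5662 FPKM in the 6 h libraries and 1612 and 17032 FPKM in the 24 h libraries. Dnase1, Cst10 and Prb1 had the same order, whereas Car6, a secreted carbonic anhydrase gene that made up most of the list's sum, was higher in replicate 1 of every group. Prh1 was at most at 0.527 FPKM. The list sum was 31715 and 47032 FPKM at 24 h, 32707 and 34198 FPKM at 6 h, and 26016 and 28019 FPKM in control. Of 5 tested genes 0 were called in any comparison, but with libraries scaled to an equal sum 4 were higher at 24 h against control and against 6 h. The correlation over the 6 libraries was 0.752 between Spdef and Amy1, 0.845 between Spdef and Bpifa2, the parotid secretory protein gene, and 0.358 between Sox2 and Amy1. The part of sublingual and parotid tissue in the levels of Sox2 and Spdef was not tested.

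**Figure D4:**
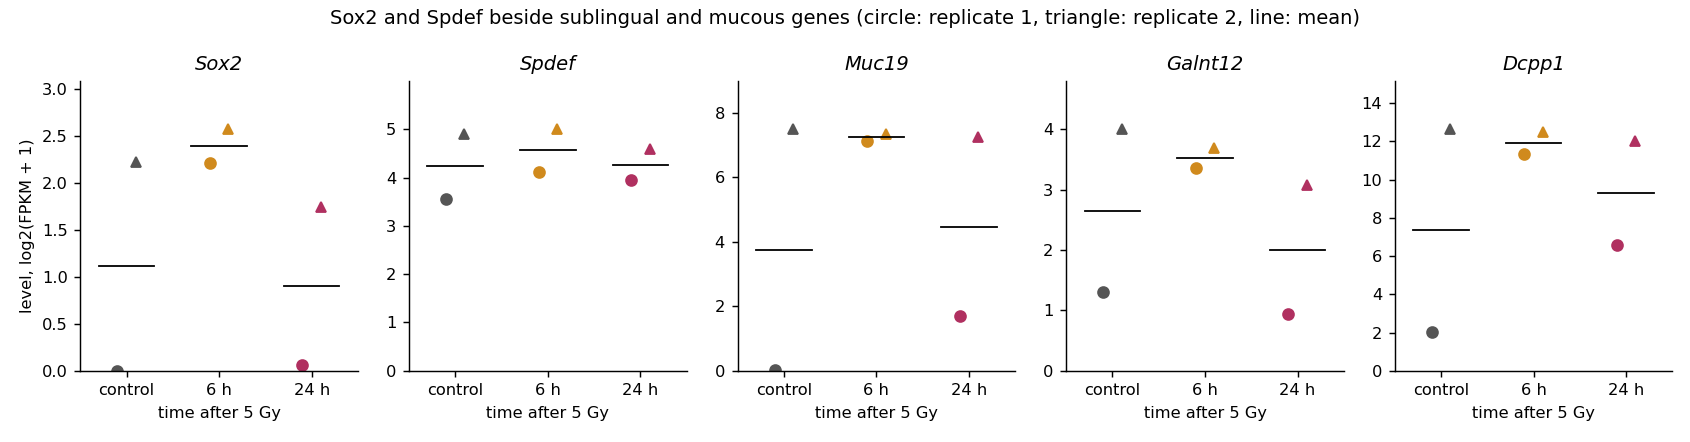
Levels as log2(FPKM + 1) (y axis, a separate scale per gene) of Sox2 and Spdef and of Muc19, Galnt12 and Dcpp1 in each library by group (x axis); circles are replicate 1, triangles replicate 2 and lines the mean of 2 libraries. Replicate 1 of control and of 24 h was low in Sox2, Muc19, Galnt12 and Dcpp1, whereas both 6 h libraries were high.

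The other SOX factors, Sox9 and Sox10, both rose at 24 h against control. Sox9, a factor of the distal progenitors of branching glands, had 8.50 and 9.73 FPKM in the control libraries, 12.1 and 9.86 FPKM in the 6 h libraries and 15.8 and 12.6 FPKM in the 24 h libraries. All irradiated libraries were above both control libraries, and both 24 h libraries were above both 6 h libraries. The log2 fold change was 0.58 ± 0.15 for 24 h against control (adjusted p = 0.0383) and 0.34 ± 0.15 for 24 h against 6 h (adjusted p = 0.145). No fit that left out 1 library called it (adjusted p between 0.0538 and 0.200).

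Sox10, known from neural crest, Schwann cells and salivary acinar and myoepithelial lineages, had 22.8 and 17.0 FPKM in the control libraries, 24.6 and 23.2 FPKM in the 6 h libraries and 52.6 and 30.0 FPKM in the 24 h libraries. Both 24 h libraries were above all others, but replicate 1 was 1.75-fold above replicate 2. The log2 fold change for 24 h against control was 0.98 ± 0.27 (adjusted p = 0.0417). Without 24h replicate 1 it was 0.58 (adjusted p = 0.150), and without 24h replicate 2 it was 1.37 (adjusted p = 0.0277), the only leave-one-out fit that called it. For 24 h against 6 h it was 0.71 ± 0.27 (adjusted p = 0.0943).

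Schwann cell and neuron genes were measured beside Sox10. Their summed level over 9 genes was 26.3 and 28.0 FPKM at 24 h against 14.6 to 17.9 FPKM in the other 4 libraries, and 2 of 3 tested genes, Mbp (0.93 ± 0.12, adjusted p = 0.00295) and Pmp22 (0.53 ± 0.14, adjusted p = 0.0372), were higher at 24 h against control. Pmp22 was called under 0 of 4 other scalings and not without either 24 h library (0.62 and 0.44, adjusted p = 0.111 and 0.192). With libraries scaled to an equal sum 0 of the 3 were called. Mbp and Pmp22 made up most of the sum, with 10.5 and 11.8 FPKM in 24h replicate 1. Genes of the list that were not tested went both ways. S100b had 0.795 and 0.805 FPKM at 24 h and 0.927 and 1.07 FPKM in control. Prx had 0.416 and 0.568 FPKM at 24 h and 0.339 and 0.305 FPKM in control. The Schwann sum was about level between the 24 h libraries while Sox10 was not; its part in the Sox10 value was not tested.

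Melanocytes also express Sox10 and Kit. Of 5 melanocyte genes, Mlana was at 0 in all 6 libraries and Dct, Tyr and Tyrp1 were at most at 0.0898 FPKM. Pmel, a structural protein gene of pigment granules and the only one tested, had 2.63 and 3.69 FPKM in the control libraries, 4.06 and 3.73 FPKM in the 6 h libraries and 0.485 and 0.646 FPKM in the 24 h libraries. It was lower at 24 h against control (-1.40 ± 0.17, adjusted p = 0.00269) and against 6 h (-1.65 ± 0.17, adjusted p = 0.00137). Both calls held under each of 4 other scalings. The part of melanocytes in the Sox10 and Kit values was not tested.

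Trp63, the basal cell factor p63, rose at 24 h against both other groups. Its levels were 2.29 and 1.94 FPKM in the control libraries, 1.74 and 1.12 FPKM in the 6 h libraries and 4.54 and 4.64 FPKM in the 24 h libraries. As deposited, both 24 h libraries were close to each other and above every other library. Both 6 h libraries were below both control libraries. The log2 fold change was 0.85 ± 0.17 for 24 h against control (adjusted p = 0.0154) and 1.22 ± 0.17 for 24 h against 6 h (adjusted p = 0.00393), and the call against 6 h held in all 6 fits that left out 1 library. At 6 h against control it was -0.37 ± 0.17 (adjusted p = 0.378). The call against control was lost without control replicate 2 (0.77, adjusted p = 0.0615), without 24h replicate 1 (0.86, adjusted p = 0.0838) and without 24h replicate 2 (0.83, adjusted p = 0.0864).

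Krt5, a keratin gene of basal cells, rose at 24 h as Trp63 did, and as deposited the contractile myoepithelial genes passed no test. It had 28.2 and 38.3 FPKM at 24 h and 15.9 and 13.7 FPKM in control (1.10 ± 0.16, adjusted p = 0.00553). Itgb4, an integrin gene of the basal attachment, was already higher at 6 h, with 17.9 and 15.3 FPKM at 6 h and 7.54 and 7.28 FPKM in control (1.06 ± 0.11, adjusted p = 0.0150), and stayed called at 24 h (0.96 ± 0.11, adjusted p = 0.00240). Of 11 tested basal and myoepithelial genes these were the only calls against control, 1 at 6 h and 2 at 24 h, all higher, and the list median at 24 h was 0.06. The 6 h call of Itgb4 was lost whichever library was left out, with values between 0.96 and 1.17 and adjusted p between 0.0730 and 0.148. With median-of-ratios factors 2 of the 11 were higher and 3 lower at 24 h against control. The counts were the same with the sum without the 20 highest genes and with quantiles. With libraries scaled to an equal sum 0 were called. For 24 h against 6 h, Krt5 and the hemidesmosome collagen gene Col17a1 were called higher, Col17a1 not under any of 4 other scalings. The Col17a1 call was also lost whichever library was left out, with values between 0.34 and 0.54. Acta2, smooth muscle actin, had 111 and 115 FPKM at 24 h and 166 and 129 FPKM in control (-0.37 ± 0.14, adjusted p = 0.0947). It was called lower under 3 of 4 other scalings (-0.65, -0.78 and -0.90) and not with libraries scaled to an equal sum (-0.40). Acta2 is named after its values were seen.

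Epidermis also expresses Trp63 and Krt5, and epidermal genes were high at 24 h. The summed level of 10 epidermal genes was 49.1 and 331 FPKM at 24 h against 4.95 to 7.96 FPKM in the other 4 libraries, and 5 of 9 tested were called higher at 24 h against control, or 3 to 9 under 4 other scalings. Krt10, the suprabasal keratin gene, had 10.7 and 129 FPKM at 24 h. As deposited, the epidermal sum thus differed manyfold between the 24 h libraries in which Trp63 was at 4.54 and 4.64 FPKM. The part of skin in the Trp63 value was not tested.

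Kit, the gene of the receptor for stem cell factor, rose at 24 h against both other groups. It had 4.49 and 4.05 FPKM in the control libraries (287 and 248 reads), 3.29 and 3.25 FPKM in the 6 h libraries (207 and 212 reads) and 6.61 and 6.11 FPKM in the 24 h libraries. As deposited, the 3 groups did not overlap. The log2 fold change was -0.30 ± 0.11 at 6 h against control (adjusted p = 0.302), 0.48 ± 0.11 at 24 h against control (adjusted p = 0.0264) and 0.78 ± 0.11 for 24 h against 6 h (adjusted p = 0.00474). The call of 24 h against control was lost whichever library was left out (adjusted p between 0.0515 and 0.140), whereas that against 6 h held in all 6 such fits.

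Kitl, the gene of the KIT ligand, singled out for that role after its values were seen, had 7.44 and 7.22 FPKM at 24 h, 3.51 and 4.86 FPKM at 6 h, and 6.75 and 5.62 FPKM in control. It was called higher for 24 h against 6 h (0.70 ± 0.16, adjusted p = 0.0230) and not against control (0.22 ± 0.16, adjusted p = 0.356). The first of these was called under 0 of 4 other scalings and not without 6h replicate 1, 24h replicate 1 or 24h replicate 2 (0.51, 0.68 and 0.71, adjusted p = 0.110, 0.137 and 0.117). Mast cells also carry KIT. The summed level of 9 mast cell genes was 2.81 and 35.1 FPKM at 24 h and 0.902 to 3.54 FPKM in the other libraries, with 0 of 4 tested genes called. With libraries scaled to an equal sum, 2 of the 4 were called higher at 24 h against control and 4 of 4 against 6 h. As deposited, Kit differed 1.08-fold between the 24 h libraries. The part of mast cells in the Kit value was not tested.

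Elf5 and Ehf, neighbouring genes on chromosome 2 that encode ETS factors of glandular epithelium, passed no test. Elf5 had 46.9 and 48.4 FPKM in the control libraries, 41.5 and 41.9 FPKM in the 6 h libraries and 55.3 and 47.0 FPKM in the 24 h libraries. Ehf had 121 and 117 FPKM in the control libraries, 81.8 and 97.9 FPKM in the 6 h libraries and 134 and 106 FPKM in the 24 h libraries. For both genes the 6 h libraries were the lowest, and the 24 h libraries overlapped the control libraries. At 6 h against control the log2 fold change was -0.41 ± 0.15 for Ehf (adjusted p = 0.295) and -0.19 ± 0.11 for Elf5 (adjusted p = 0.484). At 24 h against control it was 0.00 ± 0.15 for Ehf (adjusted p = 0.998) and 0.10 ± 0.11 for Elf5 (adjusted p = 0.551). The pair correlated at 0.904 over the 6 libraries and at 0.908 over the 4 control and 6 h libraries, a description with shared library and depth.

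Relatives of the regulators were counted in the same fits. Of 19 tested SOX, ETS and basic helix-loop-helix relatives, 6 rose and 1 fell at 24 h against control, and the median log2 fold change was 0.37. The counts were 4 and 2 with median-of-ratios factors, where the median was 0.13. Sox18, an endothelial factor, rose by 1.02 ± 0.15 (adjusted p = 0.00603), Id2, an inhibitor of helix-loop-helix factors, by 1.09 ± 0.17 (adjusted p = 0.00640), and Etv5, an ETS factor induced by fibroblast growth factor signalling, by 0.95 ± 0.19 (adjusted p = 0.0168). Id2 was not called without either 24 h library (1.02 and 1.16, adjusted p = 0.0682 and 0.0519), nor was Etv5 (1.07 and 0.83, adjusted p = 0.0559 and 0.0894), which was also lost without control replicate 1 (0.77, adjusted p = 0.0656). At 6 h 0 of them were called, and the smallest p was that of Id4, at 3.08 and 4.02 FPKM at 6 h against 14.5 and 10.1 FPKM in control (-1.54 ± 0.24, adjusted p = 0.0563). For 24 h against 6 h, 6 were higher and 0 lower, led by Id3 (1.21 ± 0.16, adjusted p = 0.00345). Under 4 other scalings that count was 3 to 5 higher and 0 to 3 lower.

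Among 25 tested genes of gland progenitors and branching signals, 9 rose and 2 fell at 24 h against control, with a median of 0.37. With median-of-ratios factors 3 were higher and 3 lower, with a median of 0.16. Fgf1, a fibroblast growth factor gene, had 8.19 and 8.30 FPKM at 24 h, 12.2 and 15.6 FPKM at 6 h, and 25.4 and 23.1 FPKM in control. It fell at 24 h against control (-1.45 ± 0.13, adjusted p = 0.000982) and did not pass at 6 h (-0.77 ± 0.13, adjusted p = 0.0757). Notch1, a receptor of cell fate choice, rose at 24 h (1.17 ± 0.17, adjusted p = 0.00554), as did the growth factor receptor gene Fgfr1 (0.78 ± 0.12, adjusted p = 0.00669). Neither was called without 24h replicate 1 (Notch1 1.04, adjusted p = 0.0511; Fgfr1 0.74, adjusted p = 0.0664), nor Fgfr1 without 24h replicate 2 (0.82, adjusted p = 0.0536). At 6 h 0 of the 25 were called, and for 24 h against 6 h 10 were higher and 1 lower. That count rested on the scaling, with 1 higher and 0 to 2 lower under each of 4 other scalings. A separate list of 11 granular convoluted tubule genes had 0 called at 6 h, and 3 higher and 6 lower at 24 h against control. Under 4 other scalings 2 of these were higher and 1 to 6 lower. Among them Egf had 7322 and 5244 FPKM in control and 909 and 1024 FPKM at 24 h. Klk1b26 had 0.186 and 0.194 FPKM in control and 21402 and 23310 FPKM at 24 h. Of 12 duct genes, 0 were called at 6 h and 1, the keratin gene Krt18, was lower at 24 h against control (-0.74 ± 0.14, adjusted p = 0.0152), a call lost without control replicate 1 (-0.63, adjusted p = 0.0707) or 24h replicate 1 (-0.59, adjusted p = 0.0858).

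Several regulators varied together across the libraries. Trp63 and Kit correlated at 0.972 over the 6 libraries and at 0.841 over the 4 control and 6 h libraries, Ascl3 and Sox10 at 0.861 and 0.958, and Sox9 and Sox10 at 0.863 and 0.309. The last of these pairs therefore rested on the 24 h libraries. Other pairs changed sign without the 24 h libraries. Among them were Ascl3 and Trp63 (0.844 and -0.404), Ascl3 and Kit (0.793 and -0.663), and Sox10 and Kit (0.732 and -0.456). Among 7242 genes that varied by at least 0.5 on the log2 scale, the profile most like that of Ascl3 was that of Helz2 (r = 0.999), for Sox2 it was Tmc5 (r = 0.998), for Trp63 Dph7 (r = 0.994) and for Kit Bola3 (r = 0.999). The nearest profiles for Bhlha15, Spdef, Sox9, Sox10, Elf5 and Ehf were those of Swt1, Zfp330, Gm14305, Surf6, Adamts15 and Idh3g, with r between 0.986 and 0.999. Each is the highest of many correlations over 6 libraries and is given as a description.

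The 24 h fold changes depended on how libraries were scaled. With median-of-ratios factors the median of all tested genes was -0.03 for 24 h against control in place of 0.20, and the calls over all genes were 1091 higher and 970 lower in place of 2451 and 502. Under that scaling Ascl3 was the only regulator called, and it was also the only one with libraries scaled to an equal sum, to the sum without the 20 most abundant genes, or by quantiles. Trp63 then had log2 fold changes between 0.53 and 0.85 and Kit between 0.14 and 0.47, all positive and none called. Bhlha15, Spdef, Elf5 and Ehf took negative values under median-of-ratios factors, none of them called.

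**Figure D5:**
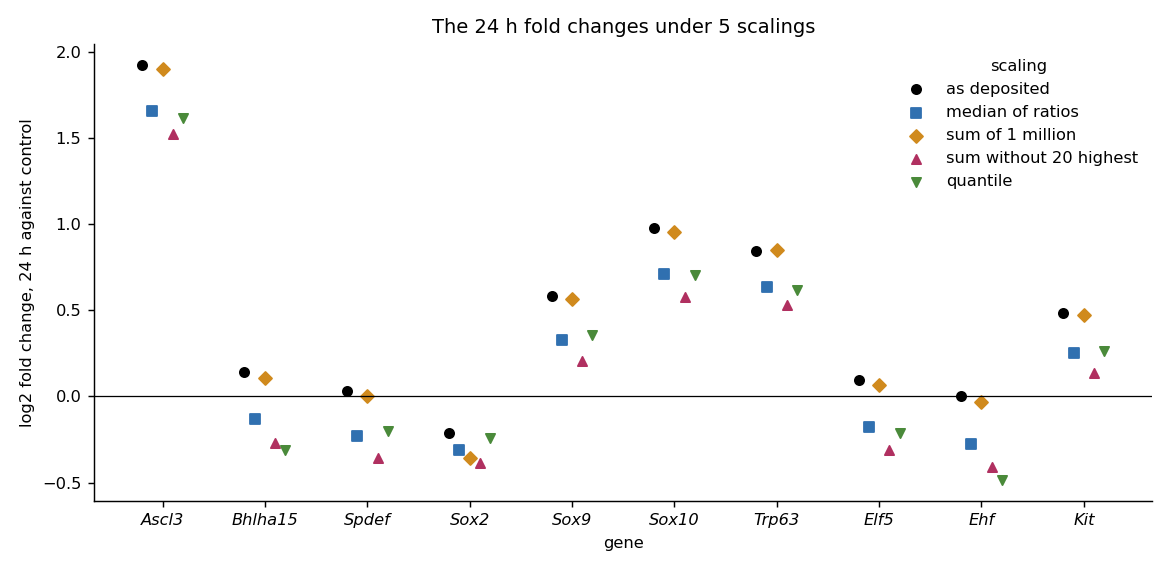
Log2 fold change of (FPKM + 1) for 24 h against control (y axis) of each regulator (x axis) as deposited and under 4 other scalings of the libraries. Ascl3 stayed above 1.5 in all 5, Sox9, Sox10, Trp63 and Kit stayed positive, and Bhlha15, Spdef, Elf5 and Ehf changed sign in at least 1.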

How the data were processed

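Gene expression was measured by RNA sequencing of total RNA, extracted with Trizol and made into libraries with Illumina protocols, per the labels' protocols. TopHat2 2.1.0, Cufflinks 2.2.1 and build mm10 are named in the submitters' processing notes. The authors deposited 1 table of FPKM for all 6 libraries. Of its 24421 entries, 27 whose symbol had become a number were left out. The control and 6 h values fell on whole-read steps for 99.99% of 11597 genes (relative tolerance 1e-06). Read counts of the regulators were recovered from these steps. Of the values at 24 h, 99.99% carried no more than 6 digits. The 24 h values were not searched for whole-read steps, so the depth there is unknown.

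Values were used as deposited and transformed as log2(FPKM + 1), which understates changes of low genes. Genes averaging 1 FPKM or more across all 6 libraries were tested (11674) with limma 3.58.1 in R 4.3.3, with a mean per group, a trend in the moderation and 3 residual degrees of freedom. Tests were two-sided, adjusted by Benjamini-Hochberg over all tested genes of a comparison, with a threshold of 0.05. The fit was tested on simulated data with changes placed only in the 6 h group and only in genes of higher level. That check does not cover changes at 24 h or regulators of low level. Levels carry the SD of 2 libraries and log2 fold changes the SE from limma. Lists were described by counts of called genes and medians, without a set test. Named from each list were up to 3 called genes with the smallest p, or the 1 with the smallest p where none was called, and for each regulator the gene with the most similar profile; exceptions are stated where they occur. The regulators and lists were chosen with earlier results of these data known. In the list of Schwann cell and neuron genes, 1 gene is not reported here and was left out of the list's counts and sum. Alternatives changed the pseudocount, filter, scaling, moderation, replicate block and libraries used.

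Promoter sequences were found for 6 of the 10 regulators in a RefSeq table (GRCm38.p6). Gene overlaps came from GENCODE on the same assembly. Scripts used Python 3.11.15 and pandas 2.3.3.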

Additional observations from a re-analysis of the deposited data

Results flagged for a closer look

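For 3 regulators the differences from the shared control at 24 h and at 6 h were unequal by the direct test of 24 h against 6 h in limma. Ascl3 was higher at 24 h than at 6 h by 1.42 on the log2 scale, Trp63 by 1.22 and Kit by 0.78, each in both 24 h libraries against both 6 h libraries. For Trp63 and Kit the 6 h libraries lay below control and the 24 h libraries above it. The 24 h values were given with fewer digits than the 6 h values. Time and the way the values were computed cannot be told apart.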

How the results depend on the processing

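Of the regulators' calls, those of Ascl3 at 24 h held in all 18 alternatives against control and against 6 h (log2 fold change 1.52 to 2.18 and 0.99 to 1.52). Those of Trp63, Kit, Sox10 and Sox9 against control were lost in 9, 13, 14 and 14 of 18, with the direction kept, and those of Trp63 and Kit against 6 h in 2 and 4. An alternative, leaving out control replicate 1 and 24h replicate 1 together, was chosen after seeing the data. Where it or any removal leaves a group with 1 library, that library is assumed to vary like the others.

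At 6 h against control, 118 genes were called; the count was 68 without a filter, 31 in a fit of the 2 groups alone, 7 to 59 with any 1 library left out (59 without control replicate 2, 7 without 6h replicate 2), and 0 with control replicate 1 and either 24 h library left out (limma, with 1271 and 1275 genes at an unadjusted p under 0.05). Scaling to an equal sum called 1 regulator, Sox2 (1.36, adjusted p = 0.0256). At 24 h against control, 2953 genes were called; the count was 895 with sums scaled, 1929 with quantiles, 1266 to 2345 with any 1 library left out (1266 without 24h replicate 2, 1295 without 24h replicate 1, 1753 without control replicate 1), and 376 or 316 with control replicate 1 and 24h replicate 1 or 2 left out. Of 5 regulators called there, 3 were called without a filter, 1 under each of the 4 scalings, and 2 with the third group left out of the fit. Fewer of the 5 were called with any 1 library or either of those pairs left out. The fit without 24h replicate 2 also called Bhlha15 (0.65), which was not among the 5. For 24 h against 6 h, 3237 genes were called; the count was 1027 with sums scaled, 1415 to 3259 with any 1 library left out (1415 without 6h replicate 1), and 800 or 806 with the pairs left out, the first of which called 1 of 3 regulators. The cause of these shifts was not tested.

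Signs changed as follows, each in a value that was not called unless stated. Against control at 24 h under median-of-ratios, sum without the 20 highest genes and quantile scaling, Bhlha15 was -0.13, -0.27 and -0.31, Spdef -0.23, -0.36 and -0.20, Elf5 -0.18, -0.31 and -0.21, and Ehf -0.27, -0.41 and -0.49, with Ehf -0.0307 under sum scaling. With 1 library left out, values for 24 h against control ranged from -0.37 to 0.65 for Bhlha15, -0.64 to 0.71 for Spdef, -1.32 to 0.90 for Sox2, -0.0201 to 0.21 for Elf5 and -0.17 to 0.17 for Ehf, values at 6 h against control from -0.34 to 1.01 for Spdef, and values for 24 h against 6 h from -0.54 to 0.49 for Bhlha15 and -0.74 to 0.14 for Spdef; that of Bhlha15 at 24 h against control was called without 24h replicate 2. With control replicate 1 and 24h replicate 1 left out, Bhlha15 was -0.30, Spdef -0.32, Elf5 -0.0430 and Ehf -0.15 at 24 h and Spdef -0.34 at 6 h against control, and Spdef 0.0205 for 24 h against 6 h. With control replicate 1 and 24h replicate 2 left out, Spdef was -0.34 at 6 h and -0.96 at 24 h against control, and Bhlha15 0.49 for 24 h against 6 h. For 24 h against 6 h, Elf5 was -0.0126, -0.14 and -0.0726 under median-of-ratios, sum without the 20 highest genes and quantile scaling, Ehf -0.0221 and -0.0950 under the last 2, Sox9 -0.0570 without the 20 highest genes, and the called gene Tcn2 -0.11 under quantiles; Kitl against control was -0.0225 under median-of-ratios and -0.14 without the 20 highest genes.

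Libraries with the same number deviated together (r = 0.466, 0.311 and 0.167 for the 3 pairs of groups), but the labels do not say that a number marks a shared animal or batch. With the replicate block, 104, 3001 and 3351 genes and 0, 5 and 4 regulators were called at 6 h and 24 h against control and at 24 h against 6 h, the addition being Sox10 (adjusted p = 0.0345). With 2 libraries per group and an unknown depth at 24 h, a change that was not called is not shown to be absent.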
